A study of Mus musculus with 10 samples.

Results

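The Smad family comprises the proteins that carry signals of bone morphogenetic proteins (BMPs), transforming growth factor β (TGF-β) and activins from receptors at the cell surface to the nucleus. All 8 mouse Smad genes were sought by symbol in a table of read counts of 14300 genes, and 7 of them were measured. Smad1, Smad2, Smad3, Smad4, Smad5, Smad6 and Smad7 are described here, and Smad9 was not analysed here. Levels are in CPM, a count scaled to the depth of its library. By library totals alone, every gene of the table had at least 0.501 CPM in 5 or more of the 10 libraries. A gene could therefore enter the table through 1 population alone, and genes low in both are absent. The CPM values given below are scaled further, so some genes fall under this limit. The cells came from the brains of embryos of C57BL/6J background that carried Grem1creERT and Rosa26LSLTdtomato, in which tamoxifen switches on the fluorescent protein TdTomato in cells that express Grem1. Tamoxifen was given to the dam at 13 completed days post coitum and brains were taken 24 h later, at 14 completed days, and live TdTomato+ and TdTomato- cells were sorted and their mRNA sequenced, which gave 5 libraries of each population with mouse numbers 2 to 6 shared between them. The study's methods describe the tissue as dorsal telencephalon without meninges. Both populations carried the same alleles and received the same tamoxifen. TdTomato+ cells are those that made active Cre after tamoxifen, together with any descendants, and TdTomato- cells are the remaining live cells of the same tissue. A figure legend of the study counts 5 mice sorted for sequencing. Whether a mouse number is 1 embryo or several littermates is not given in the sources used here.

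On ligand binding, type II receptors activate type I receptors, which phosphorylate receptor Smads. Smad1, Smad5 and Smad9 serve the BMP branch, and Smad2 and Smad3 serve the TGF-β and activin branch. Phosphorylated receptor Smads bind Smad4, the common mediator, and enter the nucleus, where they regulate target genes with cofactors. Smad6 and Smad7 are inhibitory: they block receptors or compete with receptor Smads, and their own transcription is induced by the pathway. BMP signals in the embryonic telencephalon act on dorsal patterning and on neural progenitors. Gremlin 1, the product of Grem1, is a secreted antagonist that binds BMPs.

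Total counts ranged from 23429034 to 27286180 per library. CPM values were scaled by the trimmed mean of M values (TMM) and are given as mean ± s.d. of 5 libraries, and log2 fold changes are TdTomato+ relative to TdTomato-, so that a positive value means a higher level in TdTomato+ cells. Grem1, which drives the reporter, had 63.3 ± 3.10 CPM in TdTomato+ and 6.11 ± 0.731 CPM in TdTomato- libraries. The populations differed widely in marker genes of cell types. Of 7 marker genes of deep-layer cortical neurons, 6 were higher in TdTomato+ libraries (summed level of all 7, 5804 to 7195 CPM against 1510 to 2147 CPM). The exception was Foxp2, which was lower in 4 of 5 mice (log2 fold change -0.52, edgeR, adjusted p = 0.081). All 8 radial glia markers were lower (128 to 176 CPM against 1572 to 1848 CPM), as were all 6 markers of intermediate progenitors (85.1 to 131.8 CPM against 914 to 1143 CPM), all 6 of proliferation (53.6 to 87.0 CPM against 1502 to 1820 CPM) and all 6 of GABAergic neurons (41.1 to 62.0 CPM against 1256 to 1638 CPM). All 5 measured microglial markers were lower (0.680 to 1.63 CPM against 11.4 to 55.5 CPM), and C1qa and C1qb were at 3 counts or fewer in every TdTomato+ library. Pericyte markers were lower for 3 of the 4 measured (1.02 to 3.04 CPM against 11.6 to 18.8 CPM), and Cajal-Retzius and erythroid markers for all 5 measured of each. In bulk libraries, fewer cells of a type and less RNA per cell cannot be told apart. The part of these cell types in the Smad results was not tested.

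All 7 measured Smad genes differed between the populations by edgeR's quasi-likelihood test, with an adjusted p of 0.05 or less over 14300 genes. Smad1 was higher in TdTomato+ cells, and the other 6 members were lower. This test called 77.3% of all genes, 37.9% as higher and 39.4% as lower, so a call by itself was common in these libraries. With a further limit of 2 on the size of the log2 fold change, Smad6 alone passed, as a fall, while 9.74% of all genes fell and 3.20% rose that far. The 5 libraries of one population did not overlap those of the other for 6 members, 1 higher and 5 lower, with Smad7 as the exception. This was so for 61.6% of all genes, 29.1% higher and 32.4% lower. The median absolute log2 fold change of all genes was 0.504, and only Smad3 and Smad6 exceeded it. Scaled by library totals alone, which moved the median of all genes from -0.01 to -0.18, the small changes of the other members shifted likewise. Smad1 was then at 0.20, Smad5 at -0.30, Smad2 at -0.40 and Smad4 at -0.43, and all 7 members were still called in the same directions.

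**Figure D1:**
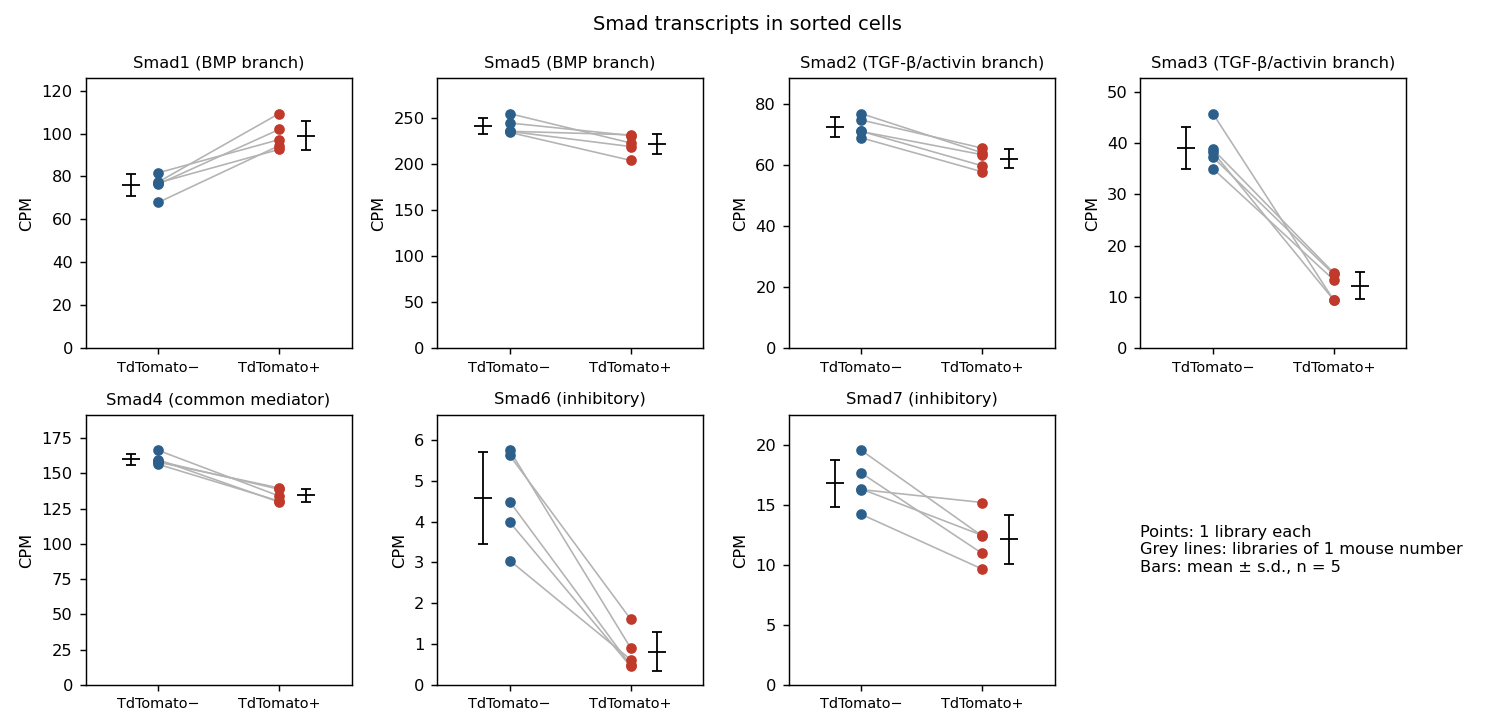
TMM-scaled CPM of the 7 measured Smad genes (vertical axis from 0, one panel per gene) in TdTomato- (blue) and TdTomato+ (red) libraries. Each point is 1 library, grey lines join libraries of the same mouse number, and black bars show the mean ± s.d. of 5 libraries. The lines rise for Smad1, fall steeply for Smad3 and Smad6, and fall less for the other members.

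Smad1 and Smad5, the receptor Smads of the BMP branch, moved in opposite directions. Smad1 lies on chromosome 8 (GRCm38, 79338395 to 79399518, minus strand). In TdTomato+ libraries of mice 2 to 6, Smad1 had 94.3, 109, 97.2, 102 and 92.6 CPM. The matching TdTomato- libraries held 67.9, 77.4, 81.7, 76.4 and 77.0 CPM of Smad1. The lowest TdTomato+ library was above the highest TdTomato- library, and the level rose in every mouse. The means were 99.1 ± 6.71 and 76.1 ± 5.04 CPM, a log2 fold change of 0.38 with a standard error (s.e.) of 0.05 (edgeR, adjusted p = 1.2e-04). This increase of 30.2% was moderate for these libraries, in which 29.2% of all genes rose by more.

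Smad5 lies on chromosome 13 (56703010 to 56742377, plus strand). Its TdTomato+ libraries held 204, 223, 219, 231 and 232 CPM for mice 2 to 6. Its TdTomato- libraries held 234, 255, 236, 245 and 236 CPM. The groups lay close together without overlap, and each mouse had the lower level in its TdTomato+ library. Means of 222 ± 11.3 and 241 ± 8.75 CPM gave a log2 fold change of -0.12 (s.e. 0.04, edgeR, adjusted p = 0.022). With TMM scaling this was the smallest change in the family. Without mouse 2 it was -0.10 (edgeR, adjusted p = 0.063), and without mouse 3 it was -0.10 (edgeR, adjusted p = 0.091), so the call for Smad5 depended on either mouse. Another annotated gene on the same strand shares 1.35% of its exonic bases.

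Smad2 and Smad3, the receptor Smads of the TGF-β and activin branch, were both lower in TdTomato+ cells but by very different amounts. Smad2 lies on chromosome 18 (76241580 to 76310963, plus strand). TdTomato+ libraries of mice 2 to 6 contained 57.9, 65.6, 59.8, 64.1 and 63.5 CPM of Smad2. TdTomato- libraries contained 69.0, 74.8, 71.1, 77.0 and 71.1 CPM. The highest TdTomato+ value stayed under the lowest TdTomato- value. The means of 62.2 ± 3.22 and 72.6 ± 3.22 CPM differed by a log2 fold change of -0.22 (s.e. 0.04, edgeR, adjusted p = 8.8e-04).

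Smad3 lies on chromosome 9 (63646767 to 63757994, minus strand). Its level in TdTomato+ libraries was 14.4, 9.32, 9.36, 14.7 and 13.3 CPM for mice 2 to 6. In TdTomato- libraries Smad3 reached 37.3, 45.8, 38.3, 38.8 and 35.0 CPM. Every TdTomato+ library was far below every TdTomato- library, and mice 3 and 4 had the lowest TdTomato+ values. The means were 12.2 ± 2.66 and 39.0 ± 4.03 CPM, and the level fitted by edgeR was 3.22-fold lower in TdTomato+ cells (log2 fold change -1.69, s.e. 0.14, adjusted p = 4.3e-06). The log2 ratio within a mouse ranged from -2.29 to -1.37. A larger fall was found for 11.2% of all genes.

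Smad4, the common mediator, was slightly lower in TdTomato+ cells. It lies on chromosome 18 (73639009 to 73703780, minus strand). Libraries of TdTomato+ cells held 130.3, 134, 129.6, 139.6 and 139 CPM of Smad4 for mice 2 to 6. Libraries of TdTomato- cells held 156, 166, 159.7, 158 and 159 CPM. Both sets were tight and did not overlap. The means of 134 ± 4.61 and 159.8 ± 3.85 CPM gave a log2 fold change of -0.25 (s.e. 0.04, edgeR, adjusted p = 3.2e-04), a level 15.9% lower.

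The inhibitory Smads were both lower in TdTomato+ cells, Smad6 by the most in the family. Smad6 lies on chromosome 9 (63953076 to 64022059, minus strand), the chromosome and strand of Smad3. It was also the least abundant member, with 10, 11, 14, 37 and 20 counts in TdTomato+ and 102, 130, 76, 142 and 165 counts in TdTomato- libraries of mice 2 to 6. On the CPM scale these were 0.453, 0.477, 0.618, 1.61 and 0.904 in TdTomato+ libraries. Mice 2 and 3 were under the 0.501 CPM of the table there, so Smad6 entered it with the help of TdTomato- libraries. TdTomato- libraries held 3.99, 4.49, 3.05, 5.63 and 5.75 CPM. The populations were well apart, and mouse 5 had the highest Smad6 level among the TdTomato+ libraries. Means of 0.812 ± 0.480 and 4.58 ± 1.14 CPM were found, and the level fitted by edgeR was 5.81-fold lower (log2 fold change -2.54, s.e. 0.23, adjusted p = 6.8e-06), and 7.59% of all genes fell by more. The log2 ratio within a mouse ranged from -3.03 to -1.76, and the dispersion of Smad6 was above that of 91.3% of all genes.

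Smad7 lies on chromosome 18 (75367529 to 75395935, plus strand). For mice 2 to 6 it had 12.4, 10.97, 9.67, 12.5 and 15.2 CPM in TdTomato+ libraries. The TdTomato- values were 19.6, 17.7, 14.2, 16.4 and 16.3 CPM. These groups overlap, since the TdTomato+ library of mouse 6 was above the TdTomato- library of mouse 4. Within each mouse the TdTomato+ level was the lower one, with log2 ratios between -0.69 and -0.10. The means of 12.2 ± 2.08 and 16.8 ± 1.97 CPM differed by a log2 fold change of -0.48 (s.e. 0.10, edgeR, adjusted p = 0.0015).

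**Figure D2:**
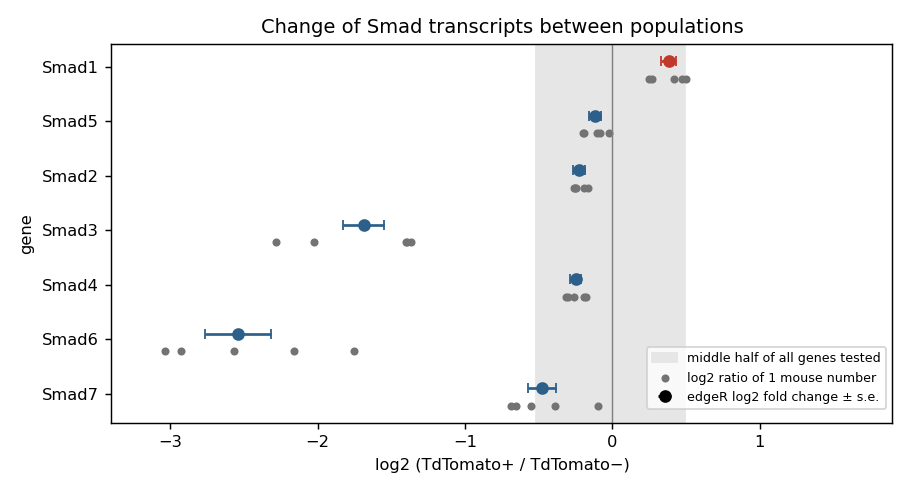
Log2 fold change of each measured Smad gene between TdTomato+ and TdTomato- cells (horizontal axis), with the edgeR estimate ± s.e. (large points) and the log2 ratio within each of 5 mice (small grey points). The grey band holds the central 50% of the 14300 genes, from -0.52 to 0.49. Smad3 at -1.69 and Smad6 at -2.54 lie far to the left of the band, and the other 5 members lie inside it.

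The sequence before the transcription start is shown for Smad1, the member that rose, and for Smad3 and Smad6, the members that fell the most, because these 3 genes carry the contrast within the family. Sequences are from RefSeq on GRCm38.p6 and cover 250 bases up to the start, in the direction of transcription. The RefSeq start of Smad1, at 79399428, lies inside the GENCODE gene given above, so 90 bases of its window belong to that gene and only the 160 bases before it are shown, while the Smad3 and Smad6 windows end where the GENCODE gene begins. Windows of 4 of the 7 measured members were examined. Capitals mark GTCT, the 4 letters that the DNA-binding domain of most Smads recognises, or its complement AGAC.
Smad1, chr8:79399519-79399678, minus strand: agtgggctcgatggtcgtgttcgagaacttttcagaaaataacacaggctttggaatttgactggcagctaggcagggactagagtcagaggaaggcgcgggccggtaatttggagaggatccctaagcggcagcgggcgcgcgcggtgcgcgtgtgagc
Smad3, chr9:63757995-63758244, minus strand: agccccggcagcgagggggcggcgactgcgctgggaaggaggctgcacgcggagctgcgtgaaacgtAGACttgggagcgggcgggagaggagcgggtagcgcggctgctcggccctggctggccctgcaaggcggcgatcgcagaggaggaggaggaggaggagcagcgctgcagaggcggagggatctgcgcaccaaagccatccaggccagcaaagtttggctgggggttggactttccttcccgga
Smad6, chr9:64022060-64022309, minus strand: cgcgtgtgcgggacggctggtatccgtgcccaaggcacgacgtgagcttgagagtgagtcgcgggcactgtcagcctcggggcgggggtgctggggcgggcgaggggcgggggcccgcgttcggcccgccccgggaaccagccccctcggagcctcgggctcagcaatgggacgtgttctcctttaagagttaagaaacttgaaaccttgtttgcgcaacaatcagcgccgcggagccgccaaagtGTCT
The Smad6 window held 1 match to GTCT, 4 bases before the start, and the Smad3 window held 1, 183 bases before it. No match was found in the Smad1 window. Smad5 has 3 annotated starts, whose windows partly overlap and held 1, 1 and 2 matches, but 42 bases of one window and all 250 of the window with 2 matches lie inside the GENCODE gene. GTCT is short, and 82.9% of 32851 promoters of this length contain it on either strand. None of the 3 windows held GGCGCC, a GC-rich element of BMP Smads that occurs in 9.59% of promoters, or the palindrome GTCTAGAC, which occurs in 0.167% and contains GTCT. A window of Smad5 held GGCGCC, 19 bases before its RefSeq start and inside the GENCODE gene. The GC content was 63.6% for Smad1, 69.2% for Smad3 and 66.8% for Smad6, above the median of 52.4% over all promoters. A match describes these letters and is not evidence of binding.

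Levels of different members were compared per kilobase of exon. In TdTomato- libraries the order from high to low was Smad4 at 43.1 ± 1.04, Smad5 at 32.5 ± 1.18, Smad1 at 12.2 ± 0.805, Smad2 at 8.27 ± 0.366, Smad3 at 7.04 ± 0.728, Smad7 at 3.72 ± 0.436 and Smad6 at 1.43 ± 0.355 CPM per kb. Smad2 and Smad3 are neighbours whose ranges overlapped, with a lowest Smad2 value of 7.86 and a highest Smad3 value of 8.26 CPM per kb. In TdTomato+ libraries Smad4 was again first at 36.2 ± 1.24, then Smad5 at 29.9 ± 1.52, Smad1 at 15.8 ± 1.07, Smad2 at 7.08 ± 0.366, Smad7 at 2.69 ± 0.459, Smad3 at 2.20 ± 0.480 and Smad6 at 0.253 ± 0.150 CPM per kb. Smad3 thus stood above Smad7 in TdTomato- cells and under it in TdTomato+ cells, where the ranges of this pair overlapped. Each order held within all 5 libraries of its population, and it was the same per kilobase of the longest transcript. Per kilobase of coding sequence Smad5 stood above Smad4, at 159 ± 8.10 against 81.3 ± 2.80 in TdTomato+ and 173 ± 6.27 against 96.7 ± 2.32 CPM per kb in TdTomato- libraries, so which of this pair is first depends on the length used. On that scale Smad7 and Smad3 also lay side by side in TdTomato+ libraries, at 9.39 ± 1.603 and 9.28 ± 2.02 CPM per kb, with Smad7 above in 3 of 5 libraries. The sum over the 7 members was 94.1 ± 3.70 CPM per kb in TdTomato+ and 108 ± 3.38 CPM per kb in TdTomato- libraries.

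**Figure D3:**
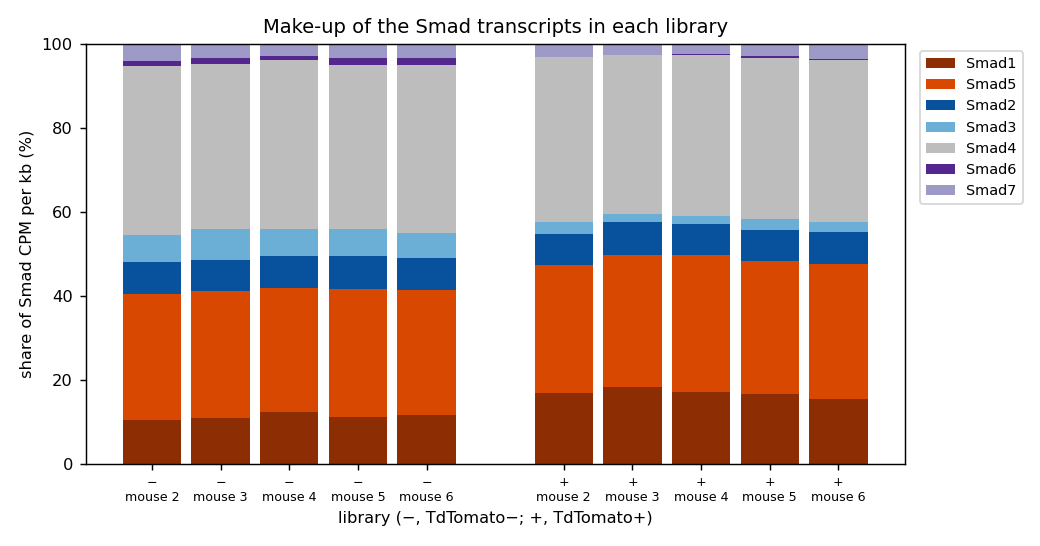
Share of each Smad gene in the summed Smad level of a library (vertical axis, percent of CPM per kb), for 5 TdTomato- libraries (left) and 5 TdTomato+ libraries (right). Smad4 and Smad5 are the largest segments in each bar, the Smad1 segment is wider in TdTomato+ libraries, and the Smad3 and Smad6 segments are narrower.

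Transcripts of the BMP branch made up a larger part of the receptor Smads in TdTomato+ cells, with Smad3 lower and no joint rise of Smad1 and Smad5. From TdTomato- to TdTomato+ libraries, Smad3 went from 7.04 to 2.20 and Smad2 from 8.27 to 7.08 CPM per kb. Smad1 went from 12.2 to 15.8 and Smad5 from 32.5 to 29.9 CPM per kb. Smad1 and Smad5 together were 4.93 times the sum of Smad2 and Smad3 per kilobase in TdTomato+ libraries and 2.92 times in TdTomato- libraries. The log2 ratio of the branches was higher in TdTomato+ cells by 0.76 ± 0.11 (s.d. over 5 mice) and in 5 of 5 mice. Within the TGF-β branch, Smad2 exceeded Smad3 by a log2 ratio of 1.71 ± 0.35 in TdTomato+ and 0.24 ± 0.12 in TdTomato- libraries. Within the BMP branch, the log2 ratio of Smad1 to Smad5 was -0.92 ± 0.11 in TdTomato+ and -1.42 ± 0.10 in TdTomato- libraries. Smad1 made up 16.8 ± 1.08% of the family sum in TdTomato+ and 11.2 ± 0.696% in TdTomato- libraries. Smad3 made up 2.34 ± 0.502% and 6.50 ± 0.482%.

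The balance between receptor Smads and Smad4 shifted by a small amount. Their log2 ratio was 0.60 ± 0.04 in TdTomato+ and 0.48 ± 0.03 in TdTomato- libraries, a difference of 0.13 ± 0.02 that had the same sign in 5 of 5 mice. Smad4 took 38.5 ± 0.467% of the family sum in TdTomato+ and 39.8 ± 0.530% in TdTomato- libraries. Per kilobase of coding sequence its shares were 21.98 ± 0.365% and 23.2 ± 0.382%, and the log2 ratios of receptor Smads to Smad4 were 1.78 ± 0.04 and 1.65 ± 0.03, so these levels, unlike the direction of the difference, rest on the length chosen. Inhibitory Smads were low relative to receptor Smads in both populations and lower in TdTomato+ cells, with log2 ratios of -4.24 ± 0.24 and -3.55 ± 0.20, a difference of -0.69 ± 0.15 with the same sign in 5 of 5 mice. Smad7 was the main inhibitory transcript. It exceeded Smad6 by a log2 ratio of 3.56 ± 0.70 in TdTomato+ and 1.41 ± 0.37 in TdTomato- libraries. These ratios are given as a description, with no test of their own, and the smallest two-sided p that an exact sign-flip test of 5 pairs can give is 0.0625.

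For each member, the genes of moderate or high level whose profile across the 10 libraries was most alike were found by the root mean square difference of centred log2 CPM. Smad1 was nearest to Mocs2 (0.032) and Tspyl1 (0.034). Smad5 was nearest to Fbxo38 (0.036) and Osbp (0.040). For Smad2 the nearest were Mfap3 (0.039) and Traf6 (0.040), and for Smad4 they were Mfap3 (0.023) and Zmym4 (0.026). Smad2 and Smad4 thus shared a nearest gene, and they were also nearest to each other within the family (0.051). Smad3 was nearest to Irs1 (0.12) and Trip13 (0.14). Smad7 was nearest to Ss18 (0.10) and Cep57 (0.11). Smad6 was farther from the genes compared, with Unc5d (0.34) and Fam210b (0.34) as the nearest. Its own level, 0.812 and 4.58 CPM in TdTomato+ and TdTomato- libraries, was under the limit for those genes. The distance of Smad6 is therefore not comparable with those of the other members. The nearest member to Smad1 was Smad5, at 0.27.

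Genes that act with the Smads were followed in 14 lists of 113 genes, of which 89 were measured. Among these, 24 were higher in TdTomato+ cells (27.0%), 47 were lower (52.8%) and 18 were not called, beside 37.9% and 39.4% of all genes. Their median log2 fold change was -0.20, and that of all genes was -0.01.

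Receptors did not move in one direction. Of 6 measured type I receptors, which phosphorylate receptor Smads, 3 rose, 1 fell and 2 were not called. Bmpr1a, a BMP receptor, fell from 98.7 ± 5.54 to 42.3 ± 2.02 CPM (log2 fold change -1.22, s.e. 0.05, edgeR, adjusted p = 2.9e-08). Acvr1b, an activin receptor, rose from 119.8 ± 11.2 to 187 ± 11.1 CPM (0.64, s.e. 0.04, edgeR, adjusted p = 1.2e-06). Acvr1c, a receptor of nodal and activins, rose at a low level from 1.504 ± 0.301 to 5.54 ± 2.53 CPM (1.78, s.e. 0.31, edgeR, adjusted p = 6.0e-04). Acvr1 also rose (0.56), and Bmpr1b (-0.08) and the TGF-β receptor Tgfbr1 (0.06) were not called. Of 4 measured type II receptors, 2 rose and 2 fell. Acvr2a, which binds activins and BMPs, rose by 0.86 (s.e. 0.09, edgeR, adjusted p = 2.0e-05) and Bmpr2 by 0.14, while Acvr2b fell (-0.75, s.e. 0.05, edgeR, adjusted p = 1.0e-06). Tgfbr2, the type II receptor of TGF-β, had 0 to 1 counts in TdTomato+ libraries and 28 to 81 counts in TdTomato- libraries. It entered the table through the TdTomato- libraries alone, where it is high, so its fall is not independent of that selection. With TdTomato+ libraries set to 3 counts each, Tgfbr2 was about 15.9-fold lower. That floor is scaled by library total and the TdTomato- mean by TMM, so the fold is approximate. The count of type II receptors that rose was 1 without mouse 3, without mouse 5, without the mouse number in the model and with scaling by library totals alone. With library totals alone, 2 type I receptors fell.

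Ligands and co-receptors were lower or not called, and none of these measured genes rose. Of 8 measured ligands, 6 fell, with a median log2 fold change of -1.35. Tgfb2 fell from 17.6 ± 4.80 to 3.23 ± 0.983 CPM (-2.44, s.e. 0.12, edgeR, adjusted p = 1.4e-07). Tgfb3 fell from 12.8 ± 2.90 to 3.29 ± 0.181 CPM (-1.94, s.e. 0.12, edgeR, adjusted p = 6.1e-07). Bmp7 fell from 4.08 ± 0.933 to 0.649 ± 0.326 CPM (-2.68, s.e. 0.23, edgeR, adjusted p = 5.4e-06). Tgfb1 had 1 to 3 counts in TdTomato+ and 14 to 67 counts in TdTomato- libraries, about 11.7-fold lower by the same approximate floor. Like Tgfbr2, it entered the table through the TdTomato- libraries alone, and the median of the ligands includes it. Bmp6 (-0.41) and the activin subunit Inhba (0.04) were not called. Of 4 measured co-receptors, Rgmb, which binds BMPs, fell (-0.41, s.e. 0.05, edgeR, adjusted p = 9.3e-05), as did Eng, known from endothelium (-1.15, s.e. 0.26, edgeR, adjusted p = 0.0029), and Tgfbr3 (-0.11) and Rgma (0.08) were not called. Eng had 17 to 29 counts in TdTomato- and 5 to 11 counts in TdTomato+ libraries. It does not pass the alternative filter of more than 1 CPM in 5 libraries. Only 2 of 7 endothelial markers were measured, with summed levels of 0.678 to 1.91 CPM in TdTomato+ and 2.05 to 3.62 CPM in TdTomato- libraries, and the part of these cells in the result was not tested.

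Adaptors that hold Smads at receptors or membranes were higher or not called. Of 5 measured adaptors, 4 rose. Zfyve9, known as SARA, presents Smad2 and Smad3 to the TGF-β receptor and rose from 70.8 ± 2.55 to 94.1 ± 3.69 CPM (0.41, s.e. 0.05, edgeR, adjusted p = 4.0e-05). Zfyve16, or endofin, rose from 29.4 ± 2.65 to 42.5 ± 1.17 CPM (0.54, s.e. 0.06, edgeR, adjusted p = 4.6e-05). Tgfbrap1, which binds TGF-β receptors, rose by 0.20 (s.e. 0.04, edgeR, adjusted p = 0.0022) and Lemd3, a Smad-binding protein of the inner nuclear membrane, by 0.18. Hgs was not called (0.09), and 97.2% of its exonic bases overlap another gene on the same strand, so its count is uncertain. Scaled by library totals alone, 2 of the 5 rose.

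Nuclear transport genes were lower in 7 of 8 cases, with a median log2 fold change of -0.41. Kpnb1, or importin β1, fell from 518 ± 25.1 to 272 ± 11.2 CPM (-0.93, s.e. 0.05, edgeR, adjusted p = 1.4e-07). The nuclear pore genes Nup214 (-0.46, s.e. 0.05, edgeR, adjusted p = 3.3e-05) and Nup153 (-0.38, s.e. 0.04, edgeR, adjusted p = 4.1e-05) also fell. Ipo8, an importin, stood at 60.6 ± 1.86 and 60.8 ± 4.02 CPM and was not called (edgeR, adjusted p = 0.95).

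Enzymes that modify Smads were split in direction. Among 5 phosphatases, all 3 measured genes of the Ctdsp group, small phosphatases that dephosphorylate Smads, fell. Ctdsp1 fell from 40.5 ± 4.80 to 3.61 ± 0.537 CPM (-3.48, s.e. 0.11, edgeR, adjusted p = 7.8e-09), and falls were smaller for Ctdsp2 (-0.87, s.e. 0.05, edgeR, adjusted p = 4.2e-07) and Ctdspl (-0.64, s.e. 0.10, edgeR, adjusted p = 2.3e-04). Ppm1a, a phosphatase of the receptor Smad tail, rose by 0.23, and Pdp1 rose by 0.33. Of 6 kinases that phosphorylate the linker of Smads, Mapk3 rose (0.64, s.e. 0.07, edgeR, adjusted p = 2.5e-05), Mapk14 fell (-0.35, s.e. 0.05, edgeR, adjusted p = 1.8e-04) and Cdk9 fell (-0.14, s.e. 0.04, edgeR, adjusted p = 0.013). Cdk8 (0.00) and Gsk3b (0.10) were among those not called. Without mouse 4, 2 of these kinases rose, and without mouse 3 or mouse 6, 1 fell. With RLE scaling or limma-voom 2 rose, and with DESeq2 1 fell. Scaled by library totals alone, 4 of the kinases fell and 1 phosphatase rose.

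Ubiquitin ligases and deubiquitinases changed modestly. Of 9 ligases, 2 rose, 4 fell and 3 were not called. Smurf1, which marks BMP Smads for degradation, rose from 102 ± 4.47 to 144 ± 4.03 CPM (0.49, s.e. 0.05, edgeR, adjusted p = 9.6e-06), and Nedd4l, which acts on activated Smad2 and Smad3, rose by 0.22 (s.e. 0.03, edgeR, adjusted p = 3.1e-04). Itch fell (-0.41, s.e. 0.06, edgeR, adjusted p = 1.6e-04), as did Wwp2 (-0.27), Smurf2 (-0.24) and Stub1 (-0.20). Wwp1 was not called (-0.01). Of 4 deubiquitinases, Usp15, which acts on receptor Smads, rose from 67.4 ± 3.15 to 114 ± 3.18 CPM (0.76, s.e. 0.04, edgeR, adjusted p = 2.9e-07) and Usp9x, which acts on Smad4, rose by 0.22 (s.e. 0.04, edgeR, adjusted p = 5.0e-04). Usp4 (0.05) and Usp11 (0.03) were not called. Scaled by library totals alone, 7 of the 9 ligases and 2 of the 4 deubiquitinases were lower and 1 of each was higher.

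Several nuclear partners of Smads changed by large factors, in both directions. Of 10 corepressors, 3 rose and 7 fell. Tgif2 fell from 57.7 ± 4.74 to 4.78 ± 0.760 CPM (-3.60, s.e. 0.08, edgeR, adjusted p = 1.8e-09), with 61.6% of its exonic bases overlapping a gene on the opposite strand. The related zinc finger genes Zeb1 and Zeb2 moved apart. Zeb1 fell from 114.6 ± 12.2 to 10.5 ± 1.57 CPM (-3.45, s.e. 0.07, edgeR, adjusted p = 1.8e-09), and Zeb2, known as Smad-interacting protein 1, rose from 406 ± 36.7 to 811 ± 76.8 CPM (1.00, s.e. 0.04, edgeR, adjusted p = 6.3e-08). Ski (0.31) and Skil (0.41), corepressors that bind Smads directly, rose. Of 8 measured coactivators and DNA-binding partners, 3 rose, 4 fell and Crebbp was not called (-0.10). The risers were the 3 schnurri genes, zinc finger partners of BMP Smads. Hivep2 rose from 105.6 ± 31.9 to 889 ± 252 CPM (3.08, s.e. 0.04, edgeR, adjusted p = 1.1e-09), Hivep3 from 47.5 ± 8.88 to 151 ± 1.84 CPM (1.69, s.e. 0.10, edgeR, adjusted p = 3.7e-07), and Hivep1 by 0.29. The histone acetyltransferase genes Kat2a (-0.52) and Kat2b (-0.67) fell, as did Zfp423 (-0.37). Ep300, another acetyltransferase gene, was called lower (-0.14, edgeR, adjusted p = 0.043) but was lower in only 3 of 5 mice. The count of lower genes in this list was 3 with DESeq2 and without mouse 2, 3 or 5, and 5 with upper-quartile or library-total scaling and without mouse 6.

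Known targets of Smads were mostly lower. Of 8 measured BMP targets, 6 fell, 1 rose and Atoh8 was not called (0.14), with a median log2 fold change of -2.19. Some Id genes of this list had been picked out by the study on these libraries, so their direction is not independent evidence. Id2 was the member that rose, from 109 ± 21.2 to 324 ± 47.5 CPM (1.57, s.e. 0.05, edgeR, adjusted p = 1.5e-08). Id4 fell from 158 ± 33.0 to 14.2 ± 2.65 CPM (-3.46, s.e. 0.12, edgeR, adjusted p = 1.8e-08). Hey1, a Notch effector that BMPs also induce, fell from 31.4 ± 7.35 to 10.1 ± 2.12 CPM (-1.62, s.e. 0.06, edgeR, adjusted p = 2.8e-08). Of 4 measured TGF-β and activin targets, Ccn2 fell (-3.50, s.e. 0.35, edgeR, adjusted p = 1.7e-05), as did Cdkn1a (-1.54, s.e. 0.19, edgeR, adjusted p = 6.0e-05) and Pmepa1 (-0.24). Junb rose from 6.27 ± 3.24 to 11.8 ± 1.92 CPM (1.00, s.e. 0.16, edgeR, adjusted p = 4.0e-04), with overlapping groups. Id4 and Hey1 are also transcribed in radial glia, whose 8 markers were all lower in TdTomato+ libraries, and the part of these cells in the result was not tested.

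**Figure D4:**
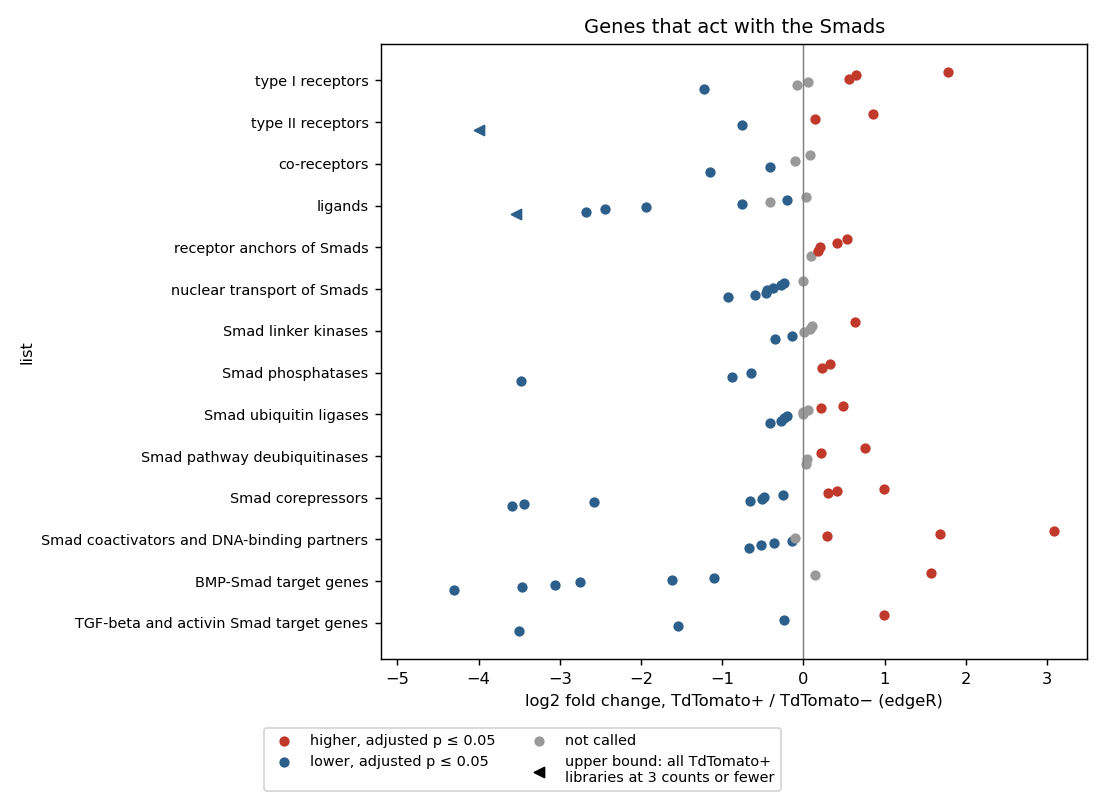
Log2 fold change between TdTomato+ and TdTomato- cells (horizontal axis) of the 89 measured genes in 14 lists of Smad partners, regulators and targets (vertical axis), coloured red where higher, blue where lower and grey where not called by edgeR. Triangles mark Tgfbr2 and Tgfb1, whose TdTomato+ libraries all had 3 counts or fewer. They stand at -3.99 and -3.54, approximate bounds from a floor scaled by library total. Nuclear transport genes and ligands lie mostly to the left of 0, and adaptors and deubiquitinases to the right.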

How the data were processed

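Live TdTomato+ and TdTomato- cells were sorted at 14.5 dpc, after tamoxifen at 13.5 dpc, and mRNA was sequenced in 10 libraries, 5 per population, grouped by the sample labels. The deposited values are raw counts of reads per gene. Per the study's methods and the submitters' processing notes, the authors trimmed reads, aligned them to GRCm38 with STAR 2.4.2a with no more than 1 mismatch and obtained a count per gene from reads that mapped once. The annotation release and strand column are not given in the sources used here, and labels and methods name different library kits. Reads of overlapping genes may therefore have been split or lost, which makes their counts uncertain.

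Coordinates, exonic length and overlaps came from GENCODE M21, which matched 14271 of 14300 identifiers. Quasi-likelihood tests (glmQLFit and glmQLFTest of edgeR 4.0.16, R 4.3.3) were run on the counts after filterByExpr, which removed 0 genes, and TMM scaling, in a model of population and mouse number, with a prior count of 0.125 in fitted fold changes, Benjamini-Hochberg adjustment over all genes and a threshold of 0.05. Log2 CPM for single libraries used a prior count of 2. The floor was set at 3 counts (0.110 to 0.128 CPM by library total, without TMM scaling), which covers counting error only. DESeq2 1.42.0, limma-voom (limma 3.58.1), other scalings, filters and leaving out each mouse were tried. The procedure was tested on simulated data with changes planted in few genes and no mouse effect. That test cannot speak to the scaling where most genes differ, as they do here.

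The methods describe paired comparisons. Deviations of same-numbered libraries from their population means correlated at 0.186 to 0.316 over genes, and other pairs at -0.312 to 0.212. These ranges overlap, since TdTomato+ mouse 3 and TdTomato- mouse 4 correlated at 0.212, above the 0.186 of mouse 5. The numbers were taken as pairs as in the methods, and the correlations do not settle the pairing. Replicates differed by more than counting noise (chi-square per degree of freedom 4.59 to 33.4). In TdTomato+ libraries mice 3 and 4 differed least, at 4.59, and each differed from the other mice by 17.1 to 33.4. The mice were thus not equally alike, and whether p-values cover animals or litters depends on what a number stands for.

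The members and lists were chosen with earlier results of these data known. Named genes are the members, up to 3 called genes with the lowest adjusted p in each list and the gene with the highest adjusted p where not called, and the nearest genes in profile with a mean log2 CPM of at least 3. Other list genes were named after their values were seen, where a count in a list was 5 or fewer, and 1 list gene is not reported here by name.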

Additional observations from a re-analysis of the deposited data

Results flagged for a closer look

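The 7 members, the 50 list genes that the naming rule chose and the 3 ratios between classes of Smads were examined for single libraries that stood apart, and the other genes named above were not. In 120 groups of 5 libraries, 1 library stood apart in 7, where chance would set about 6 apart (1 in 20). No Smad member was among them. Values are log2 CPM. Acvr1c in TdTomato- libraries was highest in mouse 3, at 1.08, with the nearest library at 0.59. Atoh8 in TdTomato- libraries was lowest in mouse 2, at 0.68, with the nearest at 1.45. Cdk8 in TdTomato+ libraries was lowest in mouse 5, at 5.67, with the nearest at 5.81. Eng in TdTomato- libraries was highest in mouse 6, at 0.13, with the nearest at -0.33. Junb in TdTomato- libraries was highest in mouse 2, at 3.60, with the nearest at 2.44. Kpnb1 in TdTomato+ libraries was highest in mouse 6, at 8.19, with the nearest at 8.07. Zfyve9 in TdTomato+ libraries was lowest in mouse 4, at 6.46, with the nearest at 6.57.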

How the results depend on the processing

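All 7 measured Smad genes kept their direction under every alternative run: no replicate block, RLE, upper-quartile and library-total scaling, other filters, robust dispersion, a prior count of 2, DESeq2, limma-voom and each mouse left out. Smad5 lost its call without mouse 2 or mouse 3, with log2 fold changes of -0.14 to -0.10 over the mice left out, and the number of members called ranged from 6 to 7. Without the replicate block, Smad6 had a log2 fold change of -2.49 and the block changed no call among members, while 10674 genes were called. Over all alternatives, adjusted p ranged from 1.6e-04 to 0.091 for Smad5 and was at most 0.0079 for the other members. Scaling by library totals alone moved the median of all genes to -0.18 and Smad1 to 0.20, and it split the calls into 4110 higher and 7123 lower, against 5424 and 5632 with TMM. With coding length, the difference in the log2 ratio of BMP-branch to TGF-β-branch Smads was 0.64, and with the longest transcript that of receptor Smads to Smad4 was 0.18. Counts of called genes in single lists moved by more than 1.5 times in 19 cases, and by less or not at all in 373. Smad6 had as few as 10 counts in a TdTomato+ library, so counting error weighs more on it than on the other members.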
